A study of Mus musculus with 2 samples.

Results

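The genes described here are the mouse replication-dependent histone genes, taken from the GENCODE mouse release 21 annotation (GRCm38) as all gene records whose names start with Hist1h, Hist2h, Hist3h or Hist4h. The rule found 70 genes, of which 67 are protein-coding among 21755 protein-coding genes, and 3 are pseudogenes (Hist3h2bb-ps, Hist1h2aj and Hist1h2al). By cluster, 56 were Hist1 genes on chromosome 13, 10 were Hist2 genes on chromosome 3, 3 were Hist3 genes on chromosome 11 and 1, Hist4h4, lay on chromosome 6. By product, 6 were H1, 20 H2A, 19 H2B, 12 H3 and 13 H4 genes. They were set against a list of 8058 chromatin boundaries from mature olfactory sensory neurons.

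In situ Hi-C ligates neighbouring DNA ends inside fixed nuclei and so maps which parts of a chromosome contact each other. The labels describe mature neurons sorted by flow cytometry from the olfactory epithelium of adult OMP-GFP mice of both sexes, strain 129P2/OlaHsd, with no treatment, where GFP follows the olfactory marker protein gene of mature neurons. A single group was made, with 2 biological replicates of 3000000 and 1500000 cells fixed in 1% formaldehyde and cut with DpnII, and no other cell type or condition was compared. The boundaries were called once, on the pooled map, so no value below has a replicate error and none could be tested between samples. The list holds positions, a class and a strength but no expression values, so the labelled cell type could not be checked against marker genes.

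Replication-dependent histone genes encode the core histones H2A, H2B, H3 and H4 and the linker histone H1, and are transcribed mainly while DNA is being copied. Their transcripts usually lack a poly(A) tail and end after a short stem-loop that is bound by the stem-loop binding protein. Mature olfactory sensory neurons no longer divide, and RNA was not measured here. A boundary marks a position across which contacts are depleted, and boundaries often lie at gene starts and at sites of the DNA-binding protein CTCF.

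Every Hist1 array of at least 2 genes had a boundary within 11.3 kb of at least 1 of its ends. The 11.3 kb is the largest of these distances and was not set beforehand, and the nearer end of each array was used. Arrays of other genes were not compared, so this is a description only. Arrays here are histone genes joined across gaps of at most 100 kb, a limit chosen after the data were seen. Because of that limit, a boundary beside an array end has few or no histone starts within 100 kb on its far side by construction, so the counts per side below describe the neighbouring genes and are no result on their own. A boundary lay within 20 kb of the transcription start of 28 of the 70 genes (40%), against 21.2% of all protein-coding genes, which include the coding members. All 28 were Hist1 genes (28 of 56, 50%), while 0 of 10 Hist2, 0 of 3 Hist3 and 0 of 1 Hist4 genes had one. The 28 genes shared 6 boundaries, so they are not 28 separate observations. Distances of starts given in kb were counted in 5 kb bins, from the bin of the start to the bin of the boundary. Gaps between an array or locus and a boundary, such as the 11.3 kb, were counted in bases from the outermost gene record.

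The strongest of the 6 lay at chr13:23765001-23770000 over an exon and UTR of Trim38, a TRIM-family ubiquitin ligase gene whose start falls in that bin. It was classed Strong, with the authors' boundary strength at 1.96, rank 302 of 8058. On its centromere-proximal side 13 histone genes started within 100 kb, and on the other side 0 did. The closest was Hist1h1a, an H1 gene, whose start lay 1335 bases from the boundary bin, followed by Hist1h3a at 2615 bases and Hist1h4a at 3771 bases. In all 8 histone genes lay within 20 kb of it. On the far side stood Slc17a2, Slc17a3 and Slc17a1, genes of the SLC17 transporter family.

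The opposite end of that array carried a Weak boundary, at chr13:23530001-23535000, with a strength of 0.441 (rank 4518). It was the only one of the 6 with histone starts in its own bin, those of Hist1h4h, an H4 gene, and Hist1h2af, an H2A gene. Hist1h3g, an H3 gene, started 422 bases beyond it. Within 100 kb there were 0 histone starts on the proximal side, where the butyrophilin genes Btn1a1 and Btn2a2 lay, and 14 on the distal side. The array between both boundaries, from Hist1h4h to Hist1h1a, held 29 histone genes in 233 kb and a single other coding gene, Hfe, which regulates iron uptake. No further boundary was listed inside it.

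The proximal array faced olfactory receptor (OR) genes, the gene family from which each olfactory neuron expresses a single member. A Strong boundary of strength 1.26 (rank 1158) lay at chr13:21700001-21705000, within the record of Olfr1359 and overlapping its coding sequence and UTR. To its proximal side 5 OR genes and 0 histone genes started within 100 kb (Olfr1362, Olfr11, Olfr1361, Olfr1360 and Olfr1359). To its distal side 13 histone genes and 0 other coding genes did, and the closest histone gene was Hist1h2bl, an H2B gene 11143 bases away.

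The other end of the proximal arrays faced vomeronasal receptor genes, the chemoreceptor family of the vomeronasal organ. A Strong boundary of strength 1.47 (rank 791) lay at chr13:22055001-22060000 over the pseudogene Vmn1r-ps92. On its proximal side 5 histone genes started within 100 kb, the nearest being Hist1h2bj at 11787 bases, and on its distal side Vmn1r188 and Vmn1r189 and 0 histone genes. All 5 genes of this small array, Hist1h2ah, Hist1h2bk, Hist1h4i, Hist1h2ag and Hist1h2bj, lay 15 to 20 kb from the boundary. Between the arrays of 19 and 5 genes stood a Weak boundary of strength 0.294 (chr13:21910001-21915000), with 6 histone genes within 100 kb on its proximal side and Zfp184, Pom121l2 and Prss16 on the other. It had no histone start within 20 kb.

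The 2 remaining boundaries near histone genes were Weak. That of strength 0.304 at chr13:23920001-23925000 lay 9156 bases from Hist1h2ba, which with Hist1h2aa forms a pair known for expression in the testis, and separated it from Slc17a3, Slc17a1 and Slc17a4. That of strength 0.336 at chr13:51210001-51215000 lay 6936 bases from the pseudogene Hist1h2al, far from all other members. None of the 6 boundary bins held undetermined bases. Their GC content ran from 39.4 to 46% and their GATC sites, where DpnII cuts, from 11 to 17, against medians of 42.2% and 12 over all boundaries.

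**Figure D1:**
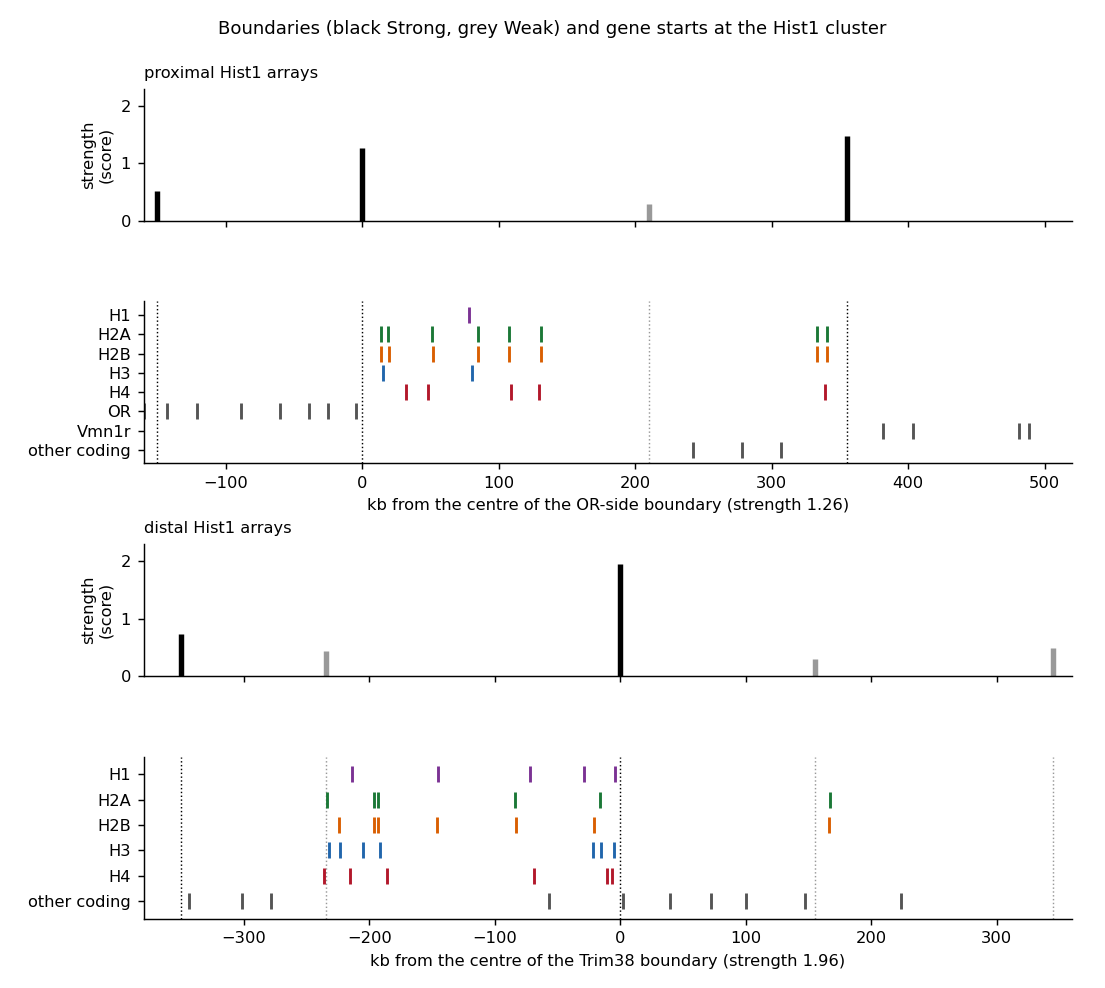
Boundary strength (authors' score, bars, black Strong and grey Weak) and the starts of coding genes and histone genes (ticks, 1 row per histone type or other gene group) along the Hist1 cluster, in kb from the centre of a boundary. Within 100 kb the histone ticks fall to 1 side of the boundaries of strength 1.26, 1.47 and 1.96, with OR genes, Vmn1r genes and Trim38 across or at them, and the pair Hist1h2ba and Hist1h2aa stands farther out beyond the boundary of 1.96; grey bars of 0.441 and 0.304 stand at the first genes of the distal arrays.

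Promoter sequences are shown for an H1 and an H4 gene at boundaries, each beside a gene of the same type inside an array, and for an H2B and an H2A gene at 1 boundary. RefSeq promoter windows (GRCm38.p6, 250 bases before to 50 after the start) matched 62 of the 70 genes, and all 62 equalled the genome. The 120 bases before the RefSeq start are printed 5′ to 3′, with the TATA box letters TATAAA, the promoter box known as CCAAT and the octamer ATTTGCAT in capitals on either strand. Hist1h1e (90 kb from a boundary) and Hist1h4k (50 kb) were chosen after their values were seen, as were Hist1h2bk and Hist1h2ag, which lie at the boundary of strength 1.47.
Hist1h1a, chr13:23763548-23763667, plus strand: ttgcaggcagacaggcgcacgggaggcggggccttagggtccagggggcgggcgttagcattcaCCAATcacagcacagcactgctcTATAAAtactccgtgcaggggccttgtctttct
Hist1h1e, chr13:23622559-23622678, minus strand: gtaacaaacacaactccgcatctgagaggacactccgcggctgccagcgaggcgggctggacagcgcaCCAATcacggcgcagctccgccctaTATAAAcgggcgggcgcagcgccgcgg
Hist1h4h, chr13:23530924-23531043, plus strand: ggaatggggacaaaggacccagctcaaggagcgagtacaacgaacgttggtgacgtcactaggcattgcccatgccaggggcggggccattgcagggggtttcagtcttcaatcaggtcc
Hist1h4k, chr13:21750554-21750673, minus strand: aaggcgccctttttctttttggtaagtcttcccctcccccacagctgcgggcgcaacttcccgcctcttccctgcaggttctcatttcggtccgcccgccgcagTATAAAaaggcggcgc
Hist1h2bk, chr13:22035701-22035820, plus strand: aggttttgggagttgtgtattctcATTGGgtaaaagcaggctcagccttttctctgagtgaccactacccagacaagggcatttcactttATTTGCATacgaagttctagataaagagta
Hist1h2ag, chr13:22042950-22043069, minus strand: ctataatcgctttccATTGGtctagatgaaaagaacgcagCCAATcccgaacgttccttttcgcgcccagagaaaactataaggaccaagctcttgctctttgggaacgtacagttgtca

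Over the whole windows, CCAAT was found in 53 of 62 member windows (85.5%) against 37.4% of all 32851 RefSeq windows, TATAAA in 35 (56.5%) against 13.6%, and ATTTGCAT in 13 (21%) against 1.74%, each on either strand. End letters of these motifs can overlap, and each motif was counted separately. Where an H2A and an H2B gene start close together on opposite strands, their windows overlap. The same letters can then count for both genes, as the octamer did for Hist1h2ah and Hist1h2bk, so these windows are not separate observations. By their GENCODE starts 24 matched genes lay within 20 kb of a boundary, and by the RefSeq starts of the windows 23 did. Among the 24 the shares were 83.3% for CCAAT, 54.2% for TATAAA and 29.2% for ATTTGCAT, and among the other 38 they were 86.8%, 57.9% and 15.8%. The spread of the shares over histone types was wider. CCAAT was present in all windows of H1, H2A, H2B and H3 genes but in 3 of 12 H4 windows (25%), and the octamer was found in 7 of 18 H2A and 6 of 16 H2B windows and in 0 of the H1, H3 and H4 windows. Of the H4 genes, Hist1h4h in a boundary bin, Hist1h4b at 10 kb and Hist4h4 at 40 kb held none of the 3 motifs, and Hist1h2af, in the same boundary bin as Hist1h4h, held CCAAT.

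The 3′ stem-loop was searched because it separates this gene class from other genes. Each window below is 30 bases long and holds in capitals the 16 bases most like the histone stem-loop consensus within 100 bases after the stop codon. The consensus here was 1 fixed sequence, the one in capitals for Hist1h1a. A stem built from other paired bases therefore counts as mismatched. Hist1h1a and Hist2h2bb matched the consensus exactly, while the other windows show variants from H3 and H4 genes and from Hist2h2be, the other H2B gene of the Hist2 array. Hist1h4b and Hist2h2be were chosen after their values were seen.
Hist1h1a, chr13:23764385-23764414, plus strand: acccaacGGCTCTTTTCAGAGCCaccaaca
Hist1h4h, chr13:23531451-23531480, plus strand: aaccaaaGGCCCTTTTCAGGGCCgcccaca
Hist1h3g, chr13:23535882-23535911, plus strand: ctttaaaGGCTCTTCTTAGAGCCacccatc
Hist1h4b, chr13:23757359-23757388, plus strand: tacaaaaGGTCCTTTTCAGGACCactcact
Hist2h2bb, chr3:96270164-96270193, plus strand: cccaaaaGGCTCTTTTCAGAGCCactttag
Hist2h2be, chr3:96221574-96221603, plus strand: gccccttTGATCTTTTAAAGTCTcttttag

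Of the 67 coding members, 41 matched the consensus exactly and 61 with at most 2 mismatches, against 1 exact match among 21513 other coding genes with an annotated stop codon, the H2B-family gene H2bfm. The match started 21 to 58 bases after the stop codon. Of the 26 coding members within 20 kb of a boundary 23 had a match with at most 2 mismatches, and of the other 41 genes 38 did. H4 genes never matched this fixed sequence exactly, and 8 of 13 differed at 2 bases. In the Hist1h4h window the 2 differing bases lie opposite each other in the stem and still pair. The 4 differing bases of Hist1h4b pair in the same way, so these counts do not measure loss of the stem-loop. Hist2h2be differed at 7 bases and was the member least like the consensus. It encodes H2BE, an H2B variant known from olfactory sensory neurons, and although its name meets the rule it is not a typical replication-dependent gene.

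Distances by array are drawn in the plot of each gene's distance to its nearest boundary. Over all 70 genes the median distance was 40 kb (interquartile range 15 to 85 kb), against 60 kb (25 to 105 kb) for coding genes. The Hist1 genes had a median of 25 kb and a range of 0 to 100 kb. The Hist2 genes lay 165 to 215 kb away with a median of 192 kb, beyond the range of the Hist1 genes. All Hist2 genes stand in a single array and were measured to the same boundary, so their distances are not separate observations. Of all coding genes, 86.4% had a boundary within 150 kb and 92% within 200 kb. Hist3 genes lay 45 to 50 kb and Hist4h4 40 kb from a boundary.

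**Figure D2:**
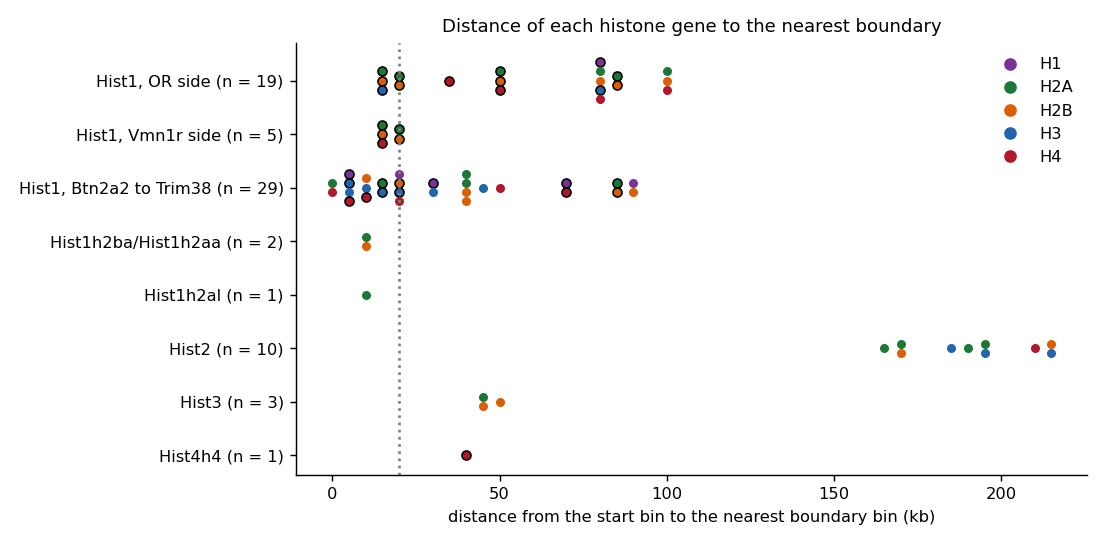
Distance in kb from the 5 kb bin of each gene start to the nearest boundary bin, by array, where 1 point is 1 gene coloured by histone type and a black outline marks a nearest boundary of class Strong; the dotted line stands at 20 kb. The Hist2 points lie from 165 to 215 kb, beyond every Hist1 point, and all were measured to the same boundary.

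In the array of 19 genes from Hist1h2bl to Hist1h2br, 5 lay within 20 kb of a boundary, and the farthest, Hist1h2bq, lay 100 kb from one. In the array of 29 genes 15 lay within 20 kb, 7 of them at the Weak boundary and 8 at the Strong one. Its farthest member by start was Hist1h2be at 90 kb, but that gene record spans 37455 bases, and from its first coding base the distance was 55 kb.

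The histone types were spread over these distances. A boundary lay within 20 kb of 2 of 6 H1 genes, 8 of 20 H2A, 7 of 19 H2B, 6 of 12 H3 and 5 of 13 H4 genes, and the median distance ran from 25 kb for H3 to 50 kb for H1. Of the 2 H1 genes, Hist1h1d lay 20 kb away by its GENCODE start but 25 kb by its RefSeq start or first coding base. H2A and H2B genes mostly stood in divergent pairs with starts 173 to 306 bases apart. Of the 14 such pairs, 5 had both genes within 20 kb and 9 had neither. At this spacing both starts of a pair have the same distance in bins, so each pair counts as 1 position. The 13 H4 genes encode an identical predicted protein of 103 residues, translated from the annotated coding sequences, although their starts lay from 0 to 210 kb from a boundary.

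At the shortest distances the members' share was near the background. A boundary lay within 5 kb of 6 genes (8.57%) against 8.54% of coding genes. These were Hist1h4h and Hist1h2af in the boundary bin and Hist1h3g, Hist1h4a, Hist1h3a and Hist1h1a beside one. The share rose above that of coding genes between 10 kb (17.1% against 12.8%) and 100 kb (85.7% against 73.5%), and at 150 kb it was 85.7% against 86.4%. Histone genes stand close together, and among coding genes with at least 5 other coding starts within 50 kb, 20.9% had a boundary within 20 kb, against 24 of the 63 such histone genes (38.1%).

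**Figure D3:**
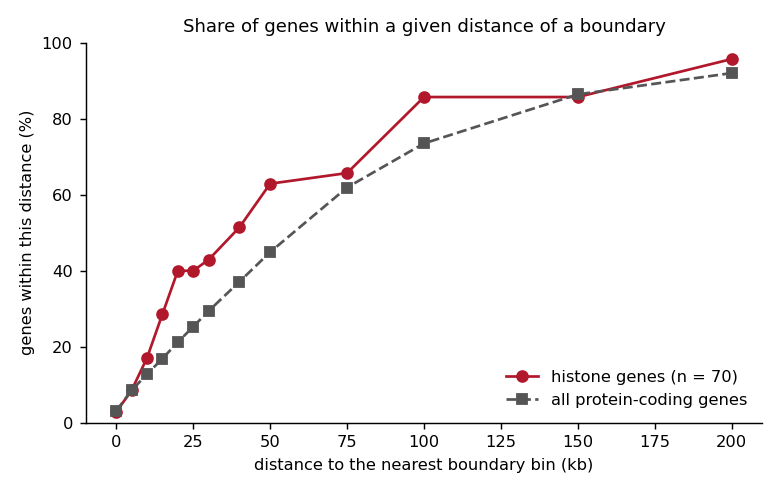
Percent of genes with a boundary bin within a given distance in kb, for the 70 histone genes (circles) and all protein-coding genes (squares). The lines meet at 5 kb (8.57 and 8.54%), separate at 20 kb (40 and 21.2%) and meet again at 150 kb (85.7 and 86.4%).

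A Strong boundary lay within 20 kb of 18 of the 70 genes (25.7%), against 13.7% of coding genes. These 18 genes shared 3 boundaries, those of strength 1.26, 1.47 and 1.96. The median distance to a Strong boundary was 110 kb for members (interquartile range 22.5 to 155 kb) and 100 kb for coding genes (45 to 205 kb).

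The intervals between adjacent boundaries show how the genes were packed. Across the 8038 intervals the median spacing was 260 kb and the median content 1 coding start. The interval between the boundaries of strength 0.441 and 1.96, spaced 235 kb, held 27 histone genes and 28 coding starts, and 19 of the 8038 intervals held more coding starts. The interval between the boundaries of strength 1.26 and 0.294, spaced 210 kb, held 19 histone genes and 0 other coding starts. Its 18 coding starts were exceeded in 80 intervals. Together 68 of the 70 genes fell into 8 intervals, and the other 2 lay in a boundary bin.

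The Hist2 array was packed differently. Its 10 genes, from Hist2h2ab to Hist2h2bb, stood within 50.3 kb (chr3:96219865-96270132) in an interval spaced 875 kb with 37 coding starts, of which 27 were other genes. Only 176 of the 8038 intervals were longer and 7 held more coding starts. Its Weak boundary, of strength 0.451 in Vps45, lay 165 kb before the array, and its Strong boundary, of strength 2.04, lay 655 kb after it. The start of Bola1, a mitochondrial protein gene, stood 0.156 kb from the first Hist2 gene. Fcgr1, an Fc receptor gene, stood 23.8 kb after the last. No undetermined bases lay in this interval. Some histone genes are close copies of each other, and how well reads could be placed in the arrays was not tested. Hist2h2be lay 170 kb from the Vps45 boundary. Its predicted protein differed from that of Hist1h2bj, which lies 15 kb from a boundary, at 5 of 126 residues.

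**Figure D4:**
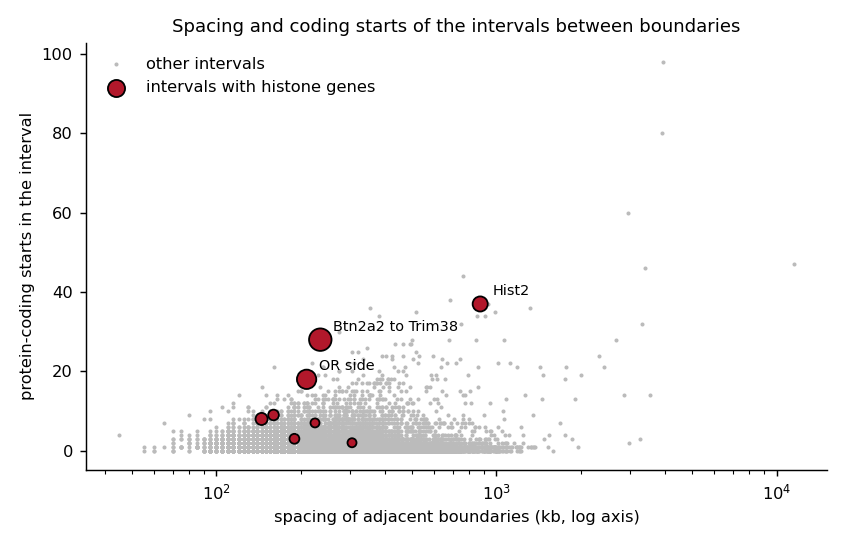
Spacing of adjacent boundaries in kb (log axis) and number of protein-coding starts between them, with 1 point per interval and the 8 intervals that hold histone genes in red, sized by their number of histone genes. The interval of 27 histone genes has 28 coding starts at a spacing of 235 kb and the Hist2 interval 37 at 875 kb.

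The small loci sat inside mixed gene neighbourhoods. The 3 Hist3 records (Hist3h2ba, Hist3h2bb-ps and Hist3h2a, chr11:58948920-58956830) have Rnf187 and Trim11 as neighbours. The annotated start of Trim17 lies at the same position as that of Hist3h2a. Their nearest boundary was Weak, of strength 0.414, 38.2 kb after the last gene, and the Strong boundary on the other side, of strength 1.74, overlapped the OR gene Olfr311 at a gap of 109 kb. Hist4h4 (chr6:136801553-136804415) lay between Gucy2c and H2afj, a gene of a replacement H2A histone, and 35.6 kb from a Strong boundary of strength 1.26 in BC049715.

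**Figure D5:**
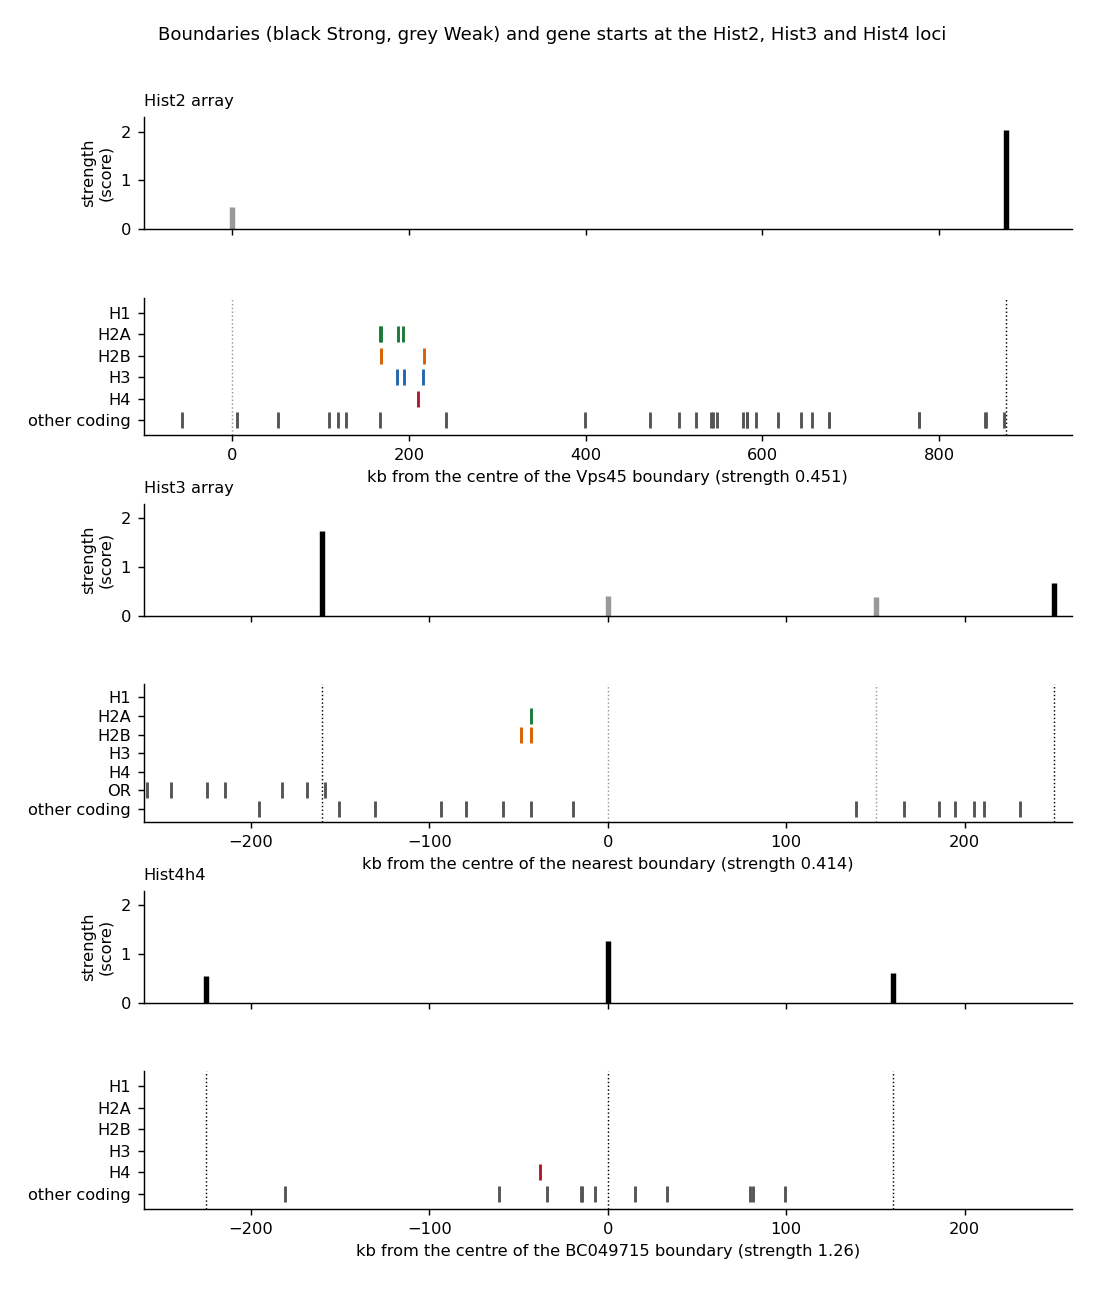
Boundary strength (authors' score, bars, black Strong and grey Weak) and the starts of histone and other coding genes (ticks) at the Hist2, Hist3 and Hist4 loci, in kb from the centre of a boundary. No histone tick lies within 20 kb of a bar, and the Hist2 genes stand in a bar-free stretch spaced 875 kb.

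CTCF core matches were searched at these boundaries. An exact match to the CTCF core consensus, searched on both strands, lay within 20 kb of 0 of the 6 boundaries near histone genes and of 21.9% of all boundaries. With 1 mismatch allowed, 4 of the 6 (66.7%) had a match, against 76.3% of all. CTCF binding was not measured, and the absence of these letters says nothing of the factor. The boundary nearest to Hist4h4 had an exact match, shown here in capitals within 30 bases on the plus strand as an example of the letters searched. It lies outside annotated genes, 18.7 kb from the centre of that boundary, on its distal side, and points away from it.
Hist4h4 boundary, chr6:136861169-136861198: gacttagaCCAGTAGAGGGCAGcaggaact

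Counted along the genome, the density of boundaries depended on how the arrays were drawn. With histone genes joined across gaps of up to 500 kb, the runs covered 0.79 Mb and held 4 boundaries (5.06 per Mb), against 3.16 per Mb over the spanned genome. With gaps of up to 100 kb, as for the arrays above, the runs covered 0.423 Mb and held 1 (2.36 per Mb). The boundaries that dropped out were those of strength 0.294, 1.96 and 0.304, which stand between or beside arrays rather than inside them.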

How the data were processed

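In situ Hi-C was made from sorted mature olfactory sensory neurons, 2 biological replicates of 1 group. According to the design text both were pooled by the authors into 1 map, and the deposited list gives 5 kb boundaries on GRCm38 (per the submitters' processing notes) with a class and a strength, a score without a stated scale; Weak ran from 0.2 to 0.5 and Strong lay above 0.5. For mapper, boundary caller, version and window, nothing was found in the labels or headers, and contact depth is unknown. The authors' score was used only to rank and divide boundaries.

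Starts were the 5′ ends of GENCODE release 21 gene records. Distances of starts were taken between 5 kb bins, with 20 kb as the window and 5 kb as adjacent. Gaps from an array or locus to a boundary were taken in bases from the outermost gene record. Members and lists were chosen with earlier results of these data known, and all counts are descriptions without a test. Genes named are members within 5 kb of a boundary, the nearest member of each boundary within 20 kb, first, last and farthest members of each run, coding neighbours, coding genes sharing a boundary bin, and all Hist3 and Hist4 members; other genes named in the report (further members of the arrays, coding genes within 100 kb of a boundary or overlapping one) were chosen after their values were seen.

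Promoters came from RefSeq. Predicted proteins were translated from GENCODE coding sequences on the genome. The stem-loop search after the stop codon was added after a search around annotated gene ends. The distance procedures and the CTCF core search were tested on simulated data, while the promoter motif and stem-loop searches were not. Python 3.11.15, pandas 2.3.3, numpy 2.4.6 and Biopython 1.88 were used. Some annotations of boundaries flanking the Hist2 and Hist3 loci are not reported here. Alternatives covered windows, classes, gene ends, coding members, run gaps and motif mismatches.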

Additional observations from a re-analysis of the deposited data

How the results depend on the processing

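No paired analysis was possible because the boundaries come from 1 map that merges both replicates, and no replicate could be left out. Of 21 alternatives 11 stayed within 1.5 times the reported value and 10 moved. The 28 genes with a boundary within 20 kb became 12 at 10 kb (17.1%, coding genes 12.8%), 44 at 50 kb (62.9%, coding 44.9%), 18 with Strong boundaries only (25.7%, coding 13.7%) and 18 with the top 25% of strengths (25.7%, coding 7.04%); the last 2 settings left 3 and 3 of the 6 boundaries. The count was 28 by distance in bases, 26 for coding members, 26 from 3′ ends, 27 from RefSeq starts and 27 from the first coding base. The median of 40 kb became 110 kb to Strong boundaries. The 4 boundaries inside runs became 1 for Strong ones and 1 with gaps of up to 100 kb, by construction of shorter runs. CTCF core matches rose from 0 to 8 with 1 mismatch. Around annotated gene ends, 25 of 70 members had an exact stem-loop match and 39 at most 2 mismatches (the cause was not tested). RefSeq starts, first coding bases, 100 kb gaps and the stop-codon search were chosen after the data were seen. Weak boundaries near the lower limit of 0.2 may depend on the authors' threshold, which could not be varied downward. The count of 28 genes rests on 6 boundaries of 1 pooled map, and contact depth is unknown.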

Other observations

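Genes whose products act in histone gene transcription or on histone transcripts were listed after the values above were seen. A boundary lay within 20 kb of 4 of 9, against 21.2% of coding genes, with a median distance of 45 kb. Lsm11, a subunit of the U7 small nuclear ribonucleoprotein that cuts histone transcripts, started in the same bin as a Strong boundary, of strength 1.28. Sympk, which encodes the scaffold protein symplekin, shared its start bin with a Weak boundary, of strength 0.439. Cpsf2, a cleavage factor gene, lay 5 kb from a Strong boundary of strength 0.698, and Cpsf3, which encodes the nuclease of the cleavage complex, lay 10 kb from a Weak one of 0.254. Npat, the activator of histone gene transcription, lay 110 kb away, and Slbp, which encodes the stem-loop binding protein, 80 kb. The remaining genes of the list, Lsm10, Zfp473 and Casp8ap2, lay 65, 60 and 45 kb from a boundary.

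The median distance of 13 replication-independent histone genes, listed at the same time, was 60 kb, equal to the median of coding genes. Of the 13, 3 had a boundary within 20 kb, where the share among coding genes was 21.2%. The 3 were H3f3b, H2afy2 and Cenpa. H3f3b, which encodes the replacement histone H3.3, lay 5 kb from a Weak boundary of strength 0.344. H2afy2, a macroH2A gene, lay 20 kb from a Strong one of 1.3. Cenpa, the centromeric H3 gene, lay 20 kb from a Strong one of 0.934.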
